A study of Mus musculus with 9 samples.

Results

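Progression from quiescence into the cell cycle was examined at the level of RNA through 10 genes of its core switch: the kinases Cdk4, Cdk6 and Cdk2, the D cyclins Ccnd1, Ccnd2 and Ccnd3, and the kinase inhibitors Cdkn1a, Cdkn1b, Cdkn1c and Cdkn2c. They were taken by symbol as a fixed list, with no threshold on any value, from 31053 genes in the count matrices. The list was chosen with earlier results of these data known, so that shares of all genes beside its counts are a description. All 10 were among the 19517 genes left after filtering, and all 10 passed the filter on low counts of every test below. The measurements are single-cell RNA counts of LSK cells (lineage-negative, Sca1+ and cKit+), the bone marrow fraction that holds hematopoietic stem cells (HSCs) and multipotent progenitors (MPPs). LSK cells came from C57BL/6 mice in 3 groups of 3 samples: young mice of 10 to 12 weeks, aged mice of over 80 weeks, and aged mice of over 80 weeks treated with CASIN, an inhibitor of Cdc42 activity (CASIN samples). CASIN was given at 25 mg/kg in cyclodextrin by 4 intraperitoneal injections 24 h apart, young and aged controls received cyclodextrin alone, and marrow was taken on day 5. All cells had been frozen viably and thawed. The question was whether the switch between non-cycling and cycling LSK cells differs with age or after CASIN.

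As background, D cyclins assemble with Cdk4 or Cdk6 in response to growth signals, and these complexes phosphorylate the retinoblastoma family of proteins. This releases E2F factors, which switch on genes for DNA replication, among them those for the E cyclins that activate Cdk2. The Cip/Kip inhibitors p21 (Cdkn1a), p27 (Cdkn1b) and p57 (Cdkn1c) bind cyclin-Cdk complexes, whereas INK4 inhibitors such as p18 (Cdkn2c) bind Cdk4 and Cdk6 themselves. In blood stem cells p57 is known for its link with quiescence, Cdk6 for its part in the exit from quiescence, and p21 as a target of p53. Much of this switch is set by protein turnover and phosphorylation, which RNA counts do not show.

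In build GRCm38 the genes lie at chr10:127063534-127067920 (Cdk4, plus strand), chr5:3341485-3531008 (Cdk6, plus strand), chr10:128697939-128705031 (Cdk2, minus strand). The D cyclin genes lie at chr7:144929931-144939925 (Ccnd1, minus strand), chr6:127125162-127152193 (Ccnd2, minus strand), chr17:47505051-47599691 (Ccnd3, plus strand), and the inhibitor genes at chr17:29090976-29100727 (Cdkn1a, plus strand), chr6:134920401-134925513 (Cdkn1b, plus strand), chr7:143458339-143461050 (Cdkn1c, minus strand), chr4:109660876-109667189 (Cdkn2c, minus strand). Counts are those of whole genes, without isoforms.

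The libraries held 19237354 to 42780953 UMIs (counts of single RNA molecules), and 1112 to 2417 cells per sample were kept, 15856 in all. The labels place 5 samples in sequencing batch 1 (young 1 and 2, aged 1, CASIN 1 and 2) and 4 in batch 2 (young 3, aged 2 and 3, CASIN 3). Barcodes above the limit of 10% mitochondrial UMIs made up 10.96 to 40.6% of each batch 1 library and 59.1 to 66.8% of each batch 2 library. Any 2 libraries shared 0 to 16 barcodes. Both sorting markers, Kit (112 to 225 CPM) and Ly6a, which encodes Sca1 (87.9 to 186 CPM), were present in each sample, where CPM is the UMIs of a gene per 1000000 UMIs of the summed cells. Of the lists of other cells, the 5 stroma genes summed to 3.62 to 24.4 CPM and the 6 lymphocyte genes to 9.03 to 60.9. The 6 red cell genes summed to 12.9 to 47.8 CPM. The 5 neutrophil genes summed to 3.02 to 420 CPM, highest in aged 3, where Kit and Ly6a together lay at 269 CPM. Among the clusters described below, an unnamed one of 380 cells was led by Cxcl12, Cxcl14 and Ibsp. The MP (granulocyte)-like cluster of 86 cells was led by Elane, S100a8 and S100a9. Cells of both stayed in the sums over LSK cells. The 18 genes known to respond to cell handling, such as Fos and Jun, summed to 6102 to 11086.5 CPM in batch 1 and 2198 to 5997 in batch 2. No gene of any of these lists was at 0 in the summed data, and their part in the results below was not tested. The labels do not say how many mice each sample holds, so p-values measure the spread between these samples. Since the UMIs of a class of cells are summed in each sample, the values below do not tell fewer molecules per cell from fewer cells with the RNA.

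The promoters of 3 genes are shown because the RNA of each differed between cell-cycle classes or between batches and because their start sites carry known short motifs. They are RefSeq windows of 300 bases (250 before and 50 after the start, build GRCm38.p6, the build of the count matrices being GRCm38), written 5′ to 3′ on the strand of the gene. Windows were found for 7 of the 10 genes, 10 windows in all. Ccnd1, Ccnd2 and Cdkn1c had no entry. Capitals mark the E-box CACGTG in Cdk4 (chr10:127063285-127063584, plus strand), the E2F-type sequence GCGGGAAA in Cdk2 (chr10:128705002-128705301, minus strand) and p53 half-sites in Cdkn1a (chr17:29090729-29091028, plus strand).
Cdk4: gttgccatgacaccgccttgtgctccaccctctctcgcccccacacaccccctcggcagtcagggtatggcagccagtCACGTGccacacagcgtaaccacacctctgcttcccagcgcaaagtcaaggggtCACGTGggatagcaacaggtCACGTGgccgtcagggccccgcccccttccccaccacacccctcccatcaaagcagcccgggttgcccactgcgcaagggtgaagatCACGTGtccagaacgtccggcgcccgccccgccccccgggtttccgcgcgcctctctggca
Cdk2: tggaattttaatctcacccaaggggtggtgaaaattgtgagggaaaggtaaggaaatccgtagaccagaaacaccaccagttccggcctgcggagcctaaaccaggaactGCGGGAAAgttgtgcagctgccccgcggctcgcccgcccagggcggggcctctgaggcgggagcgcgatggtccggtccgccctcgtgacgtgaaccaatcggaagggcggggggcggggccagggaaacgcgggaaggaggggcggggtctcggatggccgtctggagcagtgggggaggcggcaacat
Cdkn1a: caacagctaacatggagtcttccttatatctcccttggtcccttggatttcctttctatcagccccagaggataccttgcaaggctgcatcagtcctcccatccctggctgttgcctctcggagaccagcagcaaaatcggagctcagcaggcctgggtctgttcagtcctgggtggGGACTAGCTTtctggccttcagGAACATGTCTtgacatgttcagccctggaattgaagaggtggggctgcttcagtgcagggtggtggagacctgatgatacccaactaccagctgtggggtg
The Cdk4 window held 4 E-boxes, 172, 118, 98 and 11 bases before the start. At least 1 was found in 7.15% of 32851 RefSeq windows of this length, and 4 or more in 8 windows, or 0.0244%. The E2F-type sequence of Cdk2, 140 bases before the start, was 1 of the 4 sequences TTTGGCGC, TTTCCCGC, TTTGCCGC and TTTCGCGC searched on both strands, at least 1 of which was in 2.26% of windows. Of 2 windows of Cdkn1a, the one shown held 2 p53 half-sites, 73 and 51 bases before the start, a number reached by 0.359% of windows. The other window (chr17:29093519-29093818) held none. No pair of half-sites with 3 or fewer bases between them was found (0.0183% of windows had one). This search took exact matches to RRRCWWGYYY only (R is A or G, W is A or T, Y is C or T). The bases directly after the second half-site, tgacatgttc, differ from this pattern in their first letter and were not counted. A single E-box was found in the window of Cdk6, 220 bases before the start, and in 1 of 2 windows of Cdkn2c, 34 bases after it. CCAAT was found 3 times in the window of Cdkn1b (3 or more in 3.37% of windows), and once each in those of Cdk2, Ccnd3 and Cdkn2c (at least 1 in 37.4%). The CHR sequence TTTGAA was in none of the 10 windows and in 17.9% of all windows. The E-box and CCAAT were also searched on both strands. These are matches of letters and not sites of binding. The windows shown were chosen for their motifs, so that the shares of all windows beside them are a description only. All windows were counted whatever their base content. G and C made up 67% of the Cdk4, 64.7% of the Cdk2 and 54.7% of the shown Cdkn1a window, against a median of 52.7% over all windows.

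Among all LSK cells Ccnd2 and Ccnd3 varied least between samples, whereas Cdkn1a and Cdkn1c spanned the widest range relative to their level. Ccnd2 lay at 171, 172 and 169.8 CPM in the young samples, 204, 207 and 179 in the aged samples and 205, 187 and 204 in the CASIN samples, so that both older groups lay above the young samples. Ccnd3 lay at 103, 98.5 and 107 CPM in the young samples, 104, 92.2 and 95.0 in the aged samples and 108, 112 and 125 in the CASIN samples, and the CASIN samples were above the others by a small margin. How often groups of 3 samples separate in this way among all genes was not counted, so that these orders are descriptions only. Cdk6 lay at 200.3, 221 and 199 CPM in the young samples, 169, 255 and 231 in the aged samples and 229.6, 258 and 163 in the CASIN samples, and its groups overlapped. The remaining 5 genes also overlapped between groups. Their lowest, median and highest values in CPM were 169, 259 and 384 for Cdk4, 23.7, 30.8 and 39.3 for Cdk2, and 14.7, 30.4 and 49.2 for Ccnd1. For the inhibitors they were 48.3, 68.1 and 73.0 for Cdkn1b and 9.20, 19.6 and 34.1 for Cdkn2c. Cdkn1a lay at 82.3, 109 and 416 CPM in the young samples, 122, 609 and 525.8 in the aged samples and 105, 114 and 475 in the CASIN samples, and the 4 samples of batch 2 were all above the 5 of batch 1. Cdkn1c lay at 21.3, 18.4 and 7.62 CPM in the young samples, 63.3, 16.6 and 14.1 in the aged samples and 49.8, 43.2 and 22.1 in the CASIN samples, so that within each batch both older groups lay above the young samples. Levels are compared between cells and samples, and not between genes except for the shares of D cyclin UMIs below.

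**Figure D1:**
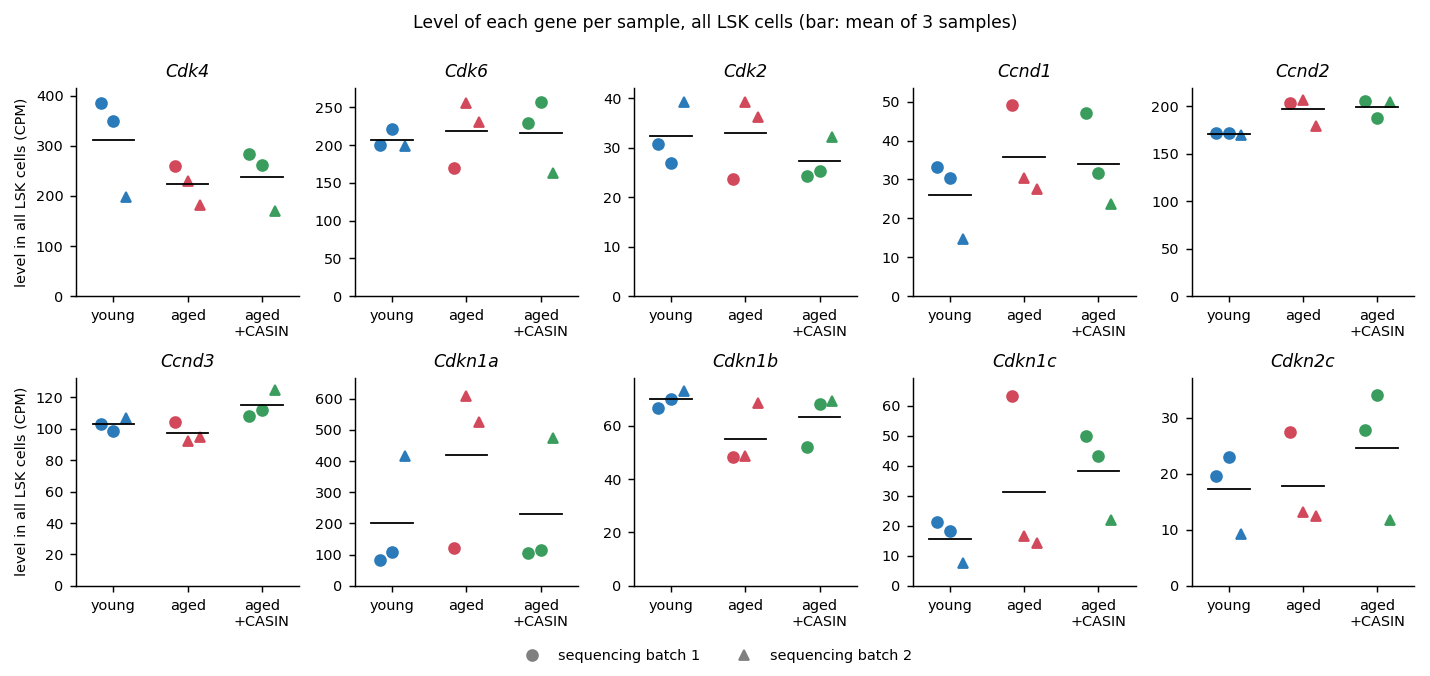
Level of each of the 10 genes over all LSK cells in each sample (y axis, CPM), by group (x axis), with circles for sequencing batch 1, triangles for batch 2 and a bar for the mean of 3 samples. Cdkn1a is split by batch (82.3 to 122 CPM in batch 1, 416 to 609 in batch 2), and Cdkn1c is lowest in the young samples of each batch.

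Cells were divided by their scores for S and G2/M genes, taken after thinning each cell to 4000 UMIs, into 9600 non-cycling cells (both scores at or below 0), 3849 S cells and 2075 G2/M cells. Another 332 cells below this depth were not scored, and 30.4% of scored cells lay within 0.05 of the limit, so that the classes are ranges of a score and not cell types. Both lists cover S or later phases, so that quiescent cells and cells in G1, the phase before S, were not told apart within the non-cycling class. No gene of the 10 is part of the scoring lists. The classes come from the same counts as the tests below, so that genes that move with the listed ones differ between classes in part by construction. The share of cycling cells was 58.2%, 47.8% and 39.8% in young 1 to 3, 27.4%, 42.4% and 33.2% in aged 1 to 3 and 36.3%, 32.2% and 23.2% in CASIN 1 to 3. Means were 48.6% ± 9.23 (SD, n = 3), 34.3% ± 7.55 and 30.6% ± 6.72. The aged and young samples overlapped (difference -14.3 percentage points, two-sided exact permutation p = 0.2, within batch -25.6 and -1.96), as did CASIN and aged samples (-3.77 points, exact p = 0.5, within batch 6.84 and -14.6). CASIN and young samples did not overlap (-18.0 points, exact p = 0.1, the smallest that 3 against 3 samples can give, within batch -18.7 and -16.6).

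As shares of UMIs (CPM), RNA of the 3 kinases and p18 was higher in cycling than in non-cycling LSK cells of the same sample. That of p57, cyclin D2 and cyclin D3 was lower. Cycling cells also held more UMIs in each sample, at medians of 14145 to 19658 per cell against 8838.5 to 12282 in non-cycling cells. A lower CPM here and below therefore need not mean fewer molecules per cell. Per cell, UMIs of Ccnd3 were higher in cycling cells in every sample. Young 1 held 2559 in 1235 cycling and 1050 in 888 non-cycling cells. Those of Ccnd2 were higher in all samples but aged 3 (1136 UMIs in 555 cycling and 2527 in 1117 non-cycling cells). Those of Cdkn1c were lower in all samples but young 3 (57 UMIs in 468 cycling and 78 in 709 non-cycling cells). These values per cell were not tested. Of the 10 genes 7 passed the test (edgeR quasi-likelihood, sample as a term), 4 higher and 3 lower, with a median log2 difference of 0.07. Of all 11872 genes tested outside the scoring lists 63.8% passed, with a median of -0.04, so that a difference between these classes was common among all genes, and the share of the 10 genes was near it.

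Cdk4, the kinase partner of D cyclins, lay at 122 to 263 CPM (median 187) in non-cycling and 244 to 438 CPM (median 356) in cycling cells, higher in cycling cells in 9 of 9 samples. The log2 difference was 0.96 ± 0.04 (SE, adjusted p = 7.43e-11), and within samples it ran from 0.72 to 1.11. Cdk2, which acts with the E cyclins at the start of replication, rose by the same size, from 14.9 to 27.4 CPM (median 20.2) to 31.6 to 52.1 CPM (median 35.4), a log2 difference of 0.96 ± 0.06 (SE, adjusted p = 6.07e-09). Its ranges in the classes did not overlap, whereas those of Cdk4 did, and both kinases were higher in cycling cells in each of the 9 samples. Cdk6 lay at 117 to 199 CPM (median 173) and 217 to 334 CPM (median 258), with a log2 difference of 0.73 ± 0.07 (SE, adjusted p = 1.47e-06) and 9 of 9 samples higher. Split into S and G2/M cells, Cdk4 was at 1.05 and 0.75 above non-cycling cells on the log2 scale, Cdk2 at 1.06 and 0.72, and Cdk6 at 0.67 and 0.72. All 6 passed the test, with adjusted p from 2.82e-15 (Cdk4 in S) to 7.35e-09 (Cdk6 in S).

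The 3 D cyclins did not move together. Ccnd2 lay at 203 to 257 CPM (median 219) in non-cycling, 148 to 197 CPM (median 177) in S and 97.9 to 142 CPM (median 114) in G2/M cells. It was lower than in non-cycling cells in 9 of 9 samples in either class, by -0.35 ± 0.06 (SE, adjusted p = 4.79e-05) in S and -0.91 ± 0.07 (SE, adjusted p = 3.89e-11) in G2/M on the log2 scale. Both ranges lay wholly below the non-cycling range. Ccnd3 fell less, by -0.24 ± 0.06 (SE, adjusted p = 0.00195) in S and -0.25 ± 0.07 (SE, adjusted p = 0.00258) in G2/M, with the exception of young 1 in S (0.12) and of young 1 and 2 in G2/M (0.06 and 0.01). Ccnd1 lay at 15.7 to 48.7 CPM (median 29.6) in non-cycling, 13.3 to 59.0 CPM (median 42.9) in S and 10.7 to 25.9 CPM (median 14.6) in G2/M cells. It was lower in G2/M cells in 9 of 9 samples, a log2 difference of -0.85 ± 0.16 (SE, adjusted p = 0.000105). In S cells the pooled difference of 0.33 ± 0.14 (SE, adjusted p = 0.0454) was split by batch: all 5 samples of batch 1 were higher in S (0.23 to 0.89), and all 4 of batch 2 were lower (-0.24 to -0.03). The call was lost without young 1 or 2, aged 1, or CASIN 1 or 2 (adjusted p from 0.0555 to 0.168) and with DESeq2 (0.113). Over S and G2/M cells together Ccnd1 gave 0.03 ± 0.10 (SE, adjusted p = 0.837), which did not pass.

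Of the inhibitors, Cdkn1c showed the largest difference between cycle classes among the 10 genes. It lay at 9.28 to 83.0 CPM (median 29.2) in non-cycling and 6.17 to 30.2 CPM (median 13.9) in cycling cells and was lower in cycling cells in 9 of 9 samples. The log2 difference was -1.27 ± 0.11 (SE, adjusted p = 3.15e-07), close to the values for S alone, -1.29, and for G2/M alone, -1.34. Cdkn2c went the other way, from 6.66 to 31.2 CPM (median 11.7) in non-cycling to 9.24 to 55.8 CPM (median 42.1) in G2/M cells, a log2 difference of 0.95 ± 0.16 (SE, adjusted p = 2.70e-05), with 9 of 9 samples higher. The size of this rise was uneven, with 1.90 and 1.60 in young 1 and 2 but 0.06, 0.26 and 0.47 in CASIN 3, aged 3 and young 3. These 3 are samples of batch 2, where aged 2 gave 0.86. In G2/M cells Cdkn2c lay at 42.1 to 55.8 CPM in the samples of batch 1 and at 9.24 to 18.4 CPM in those of batch 2. In S cells Cdkn2c gave 0.25 ± 0.16 (SE, adjusted p = 0.185). Cdkn1b was lower in S cells at -0.36 ± 0.08 (SE, adjusted p = 0.000204) in 7 of 9 samples, whereas in G2/M cells its difference was -0.0039 ± 0.08 (SE, adjusted p = 0.972) and over both classes -0.17 ± 0.07 (SE, adjusted p = 0.0508), which passed with DESeq2 (-0.22, adjusted p = 0.0161) and without aged 1 (-0.25, 0.00307), CASIN 1 (-0.24, 0.00723) or CASIN 2 (-0.21, 0.0373). Cdkn1a gave 0.12 ± 0.09 (SE, adjusted p = 0.268) and passed in neither class: 0.06 ± 0.09 (SE, adjusted p = 0.541) in S and 0.10 ± 0.09 (SE, adjusted p = 0.321) in G2/M. In all, 8 of the 10 genes passed in S, where 65.9% of all genes did, and 8 in G2/M, where 60.5% did, 4 higher and 4 lower in each.

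**Figure D2:**
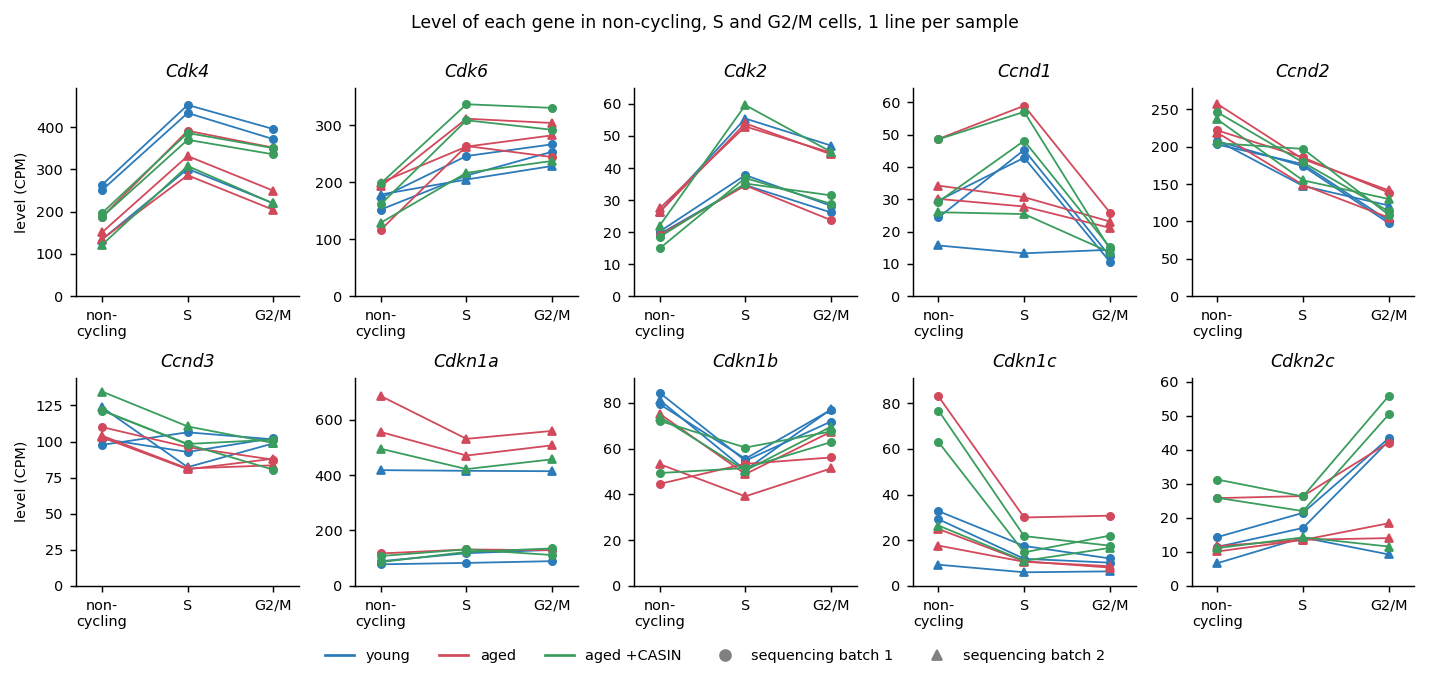
Level of each gene (y axis, CPM) in non-cycling, S and G2/M cells (x axis), each line joining the values of 1 of the 9 samples. Lines of Cdk4, Cdk6 and Cdk2 run up from non-cycling cells and those of Cdkn1c and Ccnd2 run down in all 9 samples, whereas Cdkn1a lines stay split into a low and a high set.

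The make-up of the D cyclin RNA, the share of each among the UMIs of all 3, differed between the cell-cycle classes, with less cyclin D2 in S and G2/M cells and more cyclin D3 in G2/M cells. In non-cycling cells Ccnd2 held 60.6% ± 2.33 (SD, n = 9), Ccnd3 30.8% ± 3.07 and Ccnd1 8.58% ± 2.49. In S cells the shares were 56.6% ± 3.19, 31.0% ± 3.37 and 12.4% ± 3.89, and in G2/M cells 51.4% ± 3.85, 41.3% ± 5.14 and 7.31% ± 1.99. In S cells the Ccnd3 share was thus close to that of non-cycling cells, and the Ccnd1 share was higher. In G2/M cells the CPM of Ccnd3 was also lower, as given above, but by less than those of Ccnd2 and Ccnd1. The Ccnd3 share in G2/M cells was 48.3% and 47.5% in young 1 and 2 and lowest in aged 2, at 33.7%. These shares are a description of UMIs and were not tested.

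Since cycle classes differ in their mix of progenitors, the same test was run within a single cluster. Cells were clustered on integrated expression, with none of the 10 genes among the features used, and clusters were named from fixed marker genes. The largest, with 4286 cells, was led by Ramp2, Tm4sf1, Sult1a1, Nupr1 and Cldn5 and is called HSC-1-like from its markers. At the finer resolution of 0.8 its cells fell into several clusters: 1360 of them (31.7%) in an HSC-1-like cluster, 1082 (25.2%) in a cluster led by Fosb and Fos that was HSC-2-like from its markers and 1806 (42.1%) in unnamed clusters. HSC-1-like values below therefore include HSC-2-like cells, and the clusters are rebuilt here and may differ from those of the study. Within it 5 of the 10 genes passed between cycling and non-cycling cells, against 19% of all genes: Cdk6 at 0.74 ± 0.07 (SE, adjusted p = 1.74e-10), Cdk2 at 0.72 ± 0.12 (SE, adjusted p = 5.70e-05) and Cdk4 at 0.60 ± 0.07 (SE, adjusted p = 1.29e-08) were higher. Cdkn1c at -0.52 ± 0.10 (SE, adjusted p = 0.000175) and Ccnd2 at -0.25 ± 0.07 (SE, adjusted p = 0.0127) were lower. The Cdk6 difference was thus as large as over all LSK cells, where it was 0.73, and the values for Cdk4, Cdk2, Ccnd2 and Cdkn1c were nearer to 0 than the 0.96, 0.96, -0.51 and -1.27 found there. In HSC-1-like S cells 5 genes passed, against 23.8% of all genes: Cdk2 (0.90), Cdk6 (0.79), Cdk4 (0.73) and Ccnd1 (0.39) were higher and Cdkn1c (-0.73) was lower. In HSC-1-like G2/M cells 3 passed, against 5.95%: Cdk6 (0.61) was higher, and Ccnd2 (-0.46) and Ccnd3 (-0.43) were lower. Cdkn1c (-0.23, adjusted p = 0.461), Cdkn2c (0.34, 0.526), Cdk4 (0.26, 0.153), Cdk2 (0.28, 0.539) and Ccnd1 (-0.32, 0.443) did not pass there. Over all LSK cells their G2/M values were -1.34, 0.95, 0.75, 0.72 and -0.85. Between cycling and non-cycling HSC-1-like cells Cdkn2c (0.23, adjusted p = 0.31) and Ccnd3 (-0.18, 0.0804) did not pass either. Cycling cells of this cluster numbered 39 to 138 per sample, and the sizes in and outside the cluster were not tested against each other.

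Between clusters the genes fell into opposite patterns, given here as levels with no test because clusters are defined by expression. The levels cover 8 named clusters. The MP (granulocyte)-like (86 cells) and MP (monocyte or dendritic)-like clusters (91 cells) were left out of the orders below. Cdkn1c was highest in HSC-1-like cells at 64.8 ± 30.5 CPM (SD, n = 9 samples) and HSC-3-like cells at 49.9 ± 29.1. It was lower in MPP2-like (26.9 ± 19.4) and MPP3-like cells (17.2 ± 13.0) and lowest in lymphoid-primed LMPP-like cells at 7.46 ± 3.82. Neighbours in this order lay within 1 SD of each other. Cdk6 was lowest where Cdkn1c was highest, with 105 ± 22.1 CPM in HSC-1-like and 112 ± 29.2 in HSC-3-like cells. It reached 243 ± 35.5 in LMPP-like, 266 ± 52.7 in MPP3-like, 281 ± 41.4 in MPP2-like and 299 ± 51.4 in CC-2-like cells, a cluster of cycling cells led by Ube2c and Ccnb1. The gap between the LMPP-like and the next lower cluster, the MP (interferon)-like cells led by interferon-response genes, at 159 ± 44.2, exceeded the SD, as did that between these and the HSC-3-like cells. Ccnd2 ran from 252 ± 23.6 in HSC-1-like to 125 ± 11.1 in CC-2-like and 84.8 ± 8.55 in CC-1-like cells, which are led by histone genes. Ccnd3 was highest in MPP2-like (136 ± 14.7) and HSC-1-like cells (130.4 ± 17.4) and lowest in LMPP-like cells (75.4 ± 13.0), whereas Ccnd1 was highest in LMPP-like cells (40.2 ± 8.85). Cdk4 ranged from 165 ± 68.4 in HSC-1-like to 393 ± 83.7 in CC-1-like cells, Cdk2 from 20.9 ± 7.95 in MP (interferon)-like to 51.2 ± 13.4 in CC-1-like cells, and Cdkn2c from 14.5 ± 7.97 in LMPP-like to 36.1 ± 18.9 in CC-1-like cells. Cdkn1b, at 49.5 ± 9.04 in CC-1-like to 71.5 ± 15.0 in LMPP-like cells, and Cdkn1a, at 227 ± 206 in MPP2-like to 309 ± 212 in CC-1-like cells, varied between samples about as much as between clusters or more, with SDs of 9.04 to 23.9 and of 172 to 262 CPM.

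The Cdk6 and Cdkn1c patterns were also present among non-cycling cells alone. There Cdk6 was 1.33 ± 0.22 (log2 difference from HSC-1-like cells of the same sample, SD, n = 9) in MPP2-like, 1.36 ± 0.19 in MPP3-like and 1.27 ± 0.39 in LMPP-like cells, higher in 9 of 9 samples each. Cdkn1c was -1.17 ± 0.69, -1.87 ± 0.53 and -2.94 ± 0.55, lower in 9 of 9 samples each. Non-cycling HSC-3-like cells, marked by MHC class II genes, lay near HSC-1-like cells for Cdk6, at -0.01 ± 0.35, with 5 of 9 samples higher. Cdk4 differed less, by 0.51 ± 0.27, 0.54 ± 0.17 and 0.63 ± 0.29 in the 3 progenitor clusters, again with 9 of 9 samples higher. Ccnd2 was lower in 9 of 9 samples in MPP3-like (-0.39 ± 0.16) and LMPP-like cells (-0.36 ± 0.11), and Ccnd3 in the same clusters at -0.40 ± 0.26 and -0.76 ± 0.50. Cdkn1b was higher in non-cycling MPP3-like cells in 9 of 9 samples, by 0.27 ± 0.22.

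**Figure D3:**
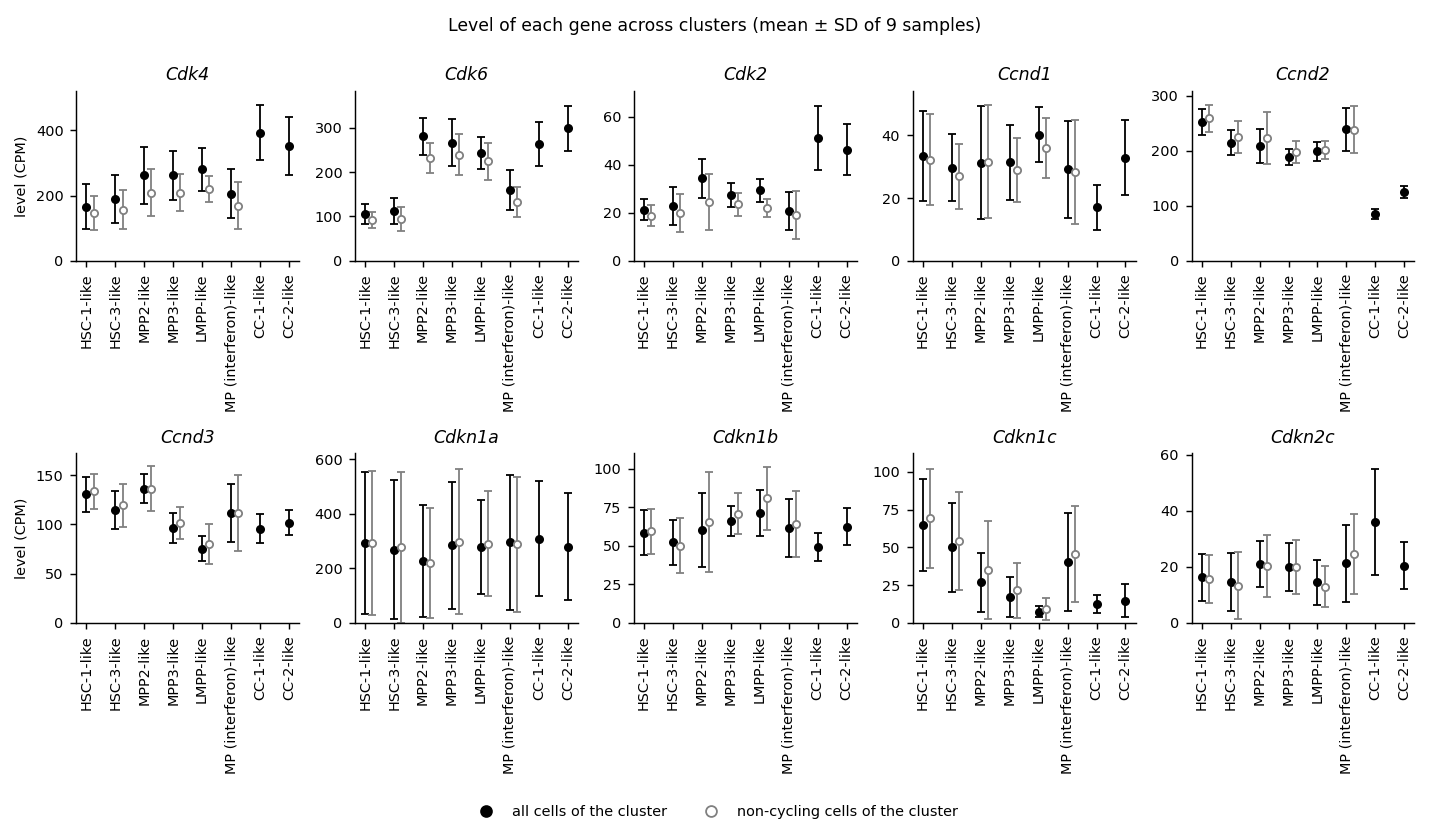
Mean level of each gene over 9 samples (y axis, CPM, error bars SD) in 8 named clusters (x axis). Filled points are all cells of a cluster, and open grey points its non-cycling cells, not drawn for CC-1-like and CC-2-like cells. The MP (granulocyte)-like and MP (monocyte or dendritic)-like clusters are not shown. Cdk6 is lowest and Cdkn1c highest in HSC-1-like cells (105 and 64.8 CPM), and Ccnd2 is lowest in CC-1-like cells (84.8 CPM).

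Levels of 6 of the 10 genes differed between the sequencing batches, and each group comparison below therefore has batch as a term. Of all genes 71.8% passed for batch in all LSK cells. Cdkn1a was 4.22-fold higher in batch 2 (log2 2.08 ± 0.10, adjusted p = 2.86e-07), and in HSC-1-like cells 6.21-fold. Cdk2 was 1.34-fold higher, and Cdkn1c (0.335-fold), Cdkn2c (0.403-fold), Ccnd1 (0.525-fold) and Cdk4 (0.613-fold) were lower in batch 2. Of the further pathway genes described below, Mdm2, another target of p53, was 2.47-fold higher in batch 2, and Trp53 itself did not pass (0.96-fold, adjusted p = 0.544). Lin54 (4.08-fold), Fbxw7 (2.61-fold) and Lin9 (2.32-fold) were also higher, and Mycn (0.0484-fold) and Myc (0.147-fold) were lower. A part of p53 was not tested. The handling genes were lower in batch 2, as given above. Batch 2 is also the batch with more mitochondrial UMIs, at a median of 5.03 to 6.997% in the cells kept against 2.65 to 3.49% in batch 1, and the part of either in these differences was not tested.

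Aged LSK cells held more Cdkn1c and Ccnd1 RNA than young LSK cells. Of the 10 genes 2 passed over all LSK cells, both higher, against 4.1% of all genes, with a median log2 difference of 0.16 for the 10 genes and 0.01 for all genes. In non-cycling cells 4 passed, all higher, against 6.44% of all genes, and in cycling cells 1, against 0.944%. None of the 3 kinases passed in any of these classes. The handling genes also differed with age within each batch, at 6102 and 6671 CPM in young 1 and 2 against 11086.5 in aged 1, and 2198 in young 3 against 5997 and 4050.4 in aged 2 and 3, and their part in these differences was not tested.

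Cdkn1c in non-cycling cells lay at 32.8, 29.2 and 9.28 CPM in the young samples, 83.0, 24.9 and 17.7 in the aged samples and 76.9, 63.0 and 26.4 in the CASIN samples. Within batch 1, aged 1 lay above both young samples, and within batch 2 both aged samples lay above young 3, although the groups overlapped over the batches. The log2 difference was 1.30 ± 0.17 (SE, adjusted p = 0.00518), a 2.47-fold rise, with 1.46 in batch 1 and 1.20 in batch 2. Over all LSK cells it was 1.33 ± 0.20 (SE, adjusted p = 0.012), and there it lost its call without young 1 (adjusted p = 0.0597), without young 2 (0.0635) and with the replicate number as a block (0.0648). HSC-1-like cells, which hold the most Cdkn1c, made up 25.6 to 28.1% of non-cycling cells in young, 30.3 to 53.5% in aged and 42.03 to 45.2% in CASIN samples. Within the HSC-1-like cluster the difference was 0.86 ± 0.13 (SE, adjusted p = 0.00194), from 67.4, 59.7 and 19.8 CPM in the young samples, 101, 46.8 and 40.2 in the aged samples and 99.9, 104 and 45.0 in the CASIN samples, with 0.74 in batch 1 and 1.18 in batch 2. In non-cycling HSC-1-like cells alone it was 0.71 ± 0.16 (SE, adjusted p = 0.0123). With clusters of the finer resolution 0.8 it was 0.54 (adjusted p = 0.0717). Group values at resolution 0.8, here and below, take the HSC-1-like cluster (1361 cells) together with an unnamed cluster that scored highest for HSC-1 markers (1888 cells).

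Ccnd1 in non-cycling cells lay at 29.6, 24.4 and 15.7 CPM in the young samples, 48.7, 34.2 and 30.1 in the aged samples and 48.6, 29.3 and 26.0 in the CASIN samples. Again aged samples lay above the young ones within each batch. Over both batches all 3 aged samples were above the highest young sample, but by a small margin (30.1 against 29.6 CPM). The log2 difference was 0.95 ± 0.18 (SE, adjusted p = 0.0166), with 0.89 in batch 1 and 1.06 in batch 2, and the call was lost without young 1, young 2 or aged 1 (adjusted p from 0.0575 to 0.0775) and with the replicate number as a block (0.0572). It was 0.78 ± 0.16 (SE, adjusted p = 0.0296) over all LSK cells and 0.70 ± 0.12 (SE, adjusted p = 0.0266) in cycling cells, the only gene of the 10 that passed there. Both calls were lost when single libraries were left out: over all LSK cells the call was lost without young 1, young 2, young 3, aged 1 or aged 2 in turn (adjusted p from 0.0509 to 0.0979), and in cycling cells without young 1, 2 or 3 or CASIN 3 (0.0521 to 0.0992). With cells thinned to 4000 UMIs the value in cycling cells was 0.38 (adjusted p = 0.412). In HSC-1-like cells Ccnd1 gave 0.98 ± 0.22 (SE, adjusted p = 0.0149), with 0.94 in batch 1 and 1.04 in batch 2. That call was lost with cells thinned to 4000 UMIs (0.71, adjusted p = 0.0802) and without young 1, young 2 or aged 1 (adjusted p from 0.0512 to 0.13).

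Cdkn2c in non-cycling cells lay at 11.4, 14.3 and 6.66 CPM in the young samples, 25.8, 10.1 and 11.7 in the aged samples and 25.9, 31.2 and 11.1 in the CASIN samples, aged above young within each batch. The log2 difference was 0.95 ± 0.16 (SE, adjusted p = 0.0111), with 1.04 in batch 1 and 0.73 in batch 2. The call was lost without young 1 (adjusted p = 0.0584) or aged 1 (0.0747), and with cells thinned to 4000 UMIs (0.0765). In HSC-1-like cells it was 0.88 ± 0.26 (SE, adjusted p = 0.0468), on 23 to 171 UMIs per sample, and this call was lost when any of 7 of the 9 libraries was left out (adjusted p from 0.067 to 0.203) and with DESeq2 (0.0685). Without young 1 the value itself was 0.52. Over all LSK cells the value was 0.46 ± 0.13 (SE, adjusted p = 0.0773) and did not pass.

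Cdkn1a in HSC-1-like cells lay at 45.9, 58.0 and 453 CPM in the young samples, 124, 684 and 589 in the aged samples and 81.3, 85.6 and 517 in the CASIN samples. Aged 1 was above both young samples of batch 1, and aged 2 and 3 were above young 3 of batch 2. The log2 difference was 0.92 ± 0.15 (SE, adjusted p = 0.00291), with 1.33 in batch 1 and 0.55 in batch 2, and in non-cycling LSK cells it was 0.56 ± 0.12 (SE, adjusted p = 0.0252). The non-cycling call was lost without any 1 of young 1, 2 or 3 or aged 1 or 2 (adjusted p from 0.0587 to 0.12). Over all LSK cells Cdkn1a gave 0.42 ± 0.12 (SE, adjusted p = 0.0803), and it passed there with DESeq2 (0.40, adjusted p = 0.0426) and with cells thinned to 4000 UMIs (0.50, adjusted p = 0.0497). In HSC-1-like cells 4 of the 10 genes passed, Ccnd1, Cdkn1a, Cdkn1c and Cdkn2c, against 10.4% of all genes.

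The other genes did not pass with age, though some did under other settings. Cdkn1b was lower in each class, with -0.58 ± 0.19 (SE, adjusted p = 0.097) in non-cycling and -0.40 ± 0.15 (SE, adjusted p = 0.128) in HSC-1-like cells, and lower in both batches. It passed in non-cycling cells with DESeq2 (-0.60, adjusted p = 0.0412), without the filter on low counts (-0.59, 0.0219) and without aged 3 (-0.74, 0.026), and in HSC-1-like cells with a mitochondrial limit of 5% (-0.61, 0.0312) and without aged 3 (-0.52, 0.0409). Cdk6 went in opposite directions in the batches over all LSK cells, with -0.31 in batch 1 and 0.30 in batch 2, for a pooled 0.11 ± 0.20 (SE, adjusted p = 0.792). Cdk4 gave -0.26 ± 0.14 (SE, adjusted p = 0.266) in HSC-1-like cells, again split by batch (-0.58 in batch 1 and 0.10 in batch 2), and passed only without young 3 (-0.48, adjusted p = 0.0292). Over all LSK cells Ccnd2 gave 0.22 ± 0.08 (SE, adjusted p = 0.171), Ccnd3 -0.08 ± 0.09 (SE, adjusted p = 0.638) and Cdk2 -0.13 ± 0.10 (SE, adjusted p = 0.491).

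**Figure D4:**
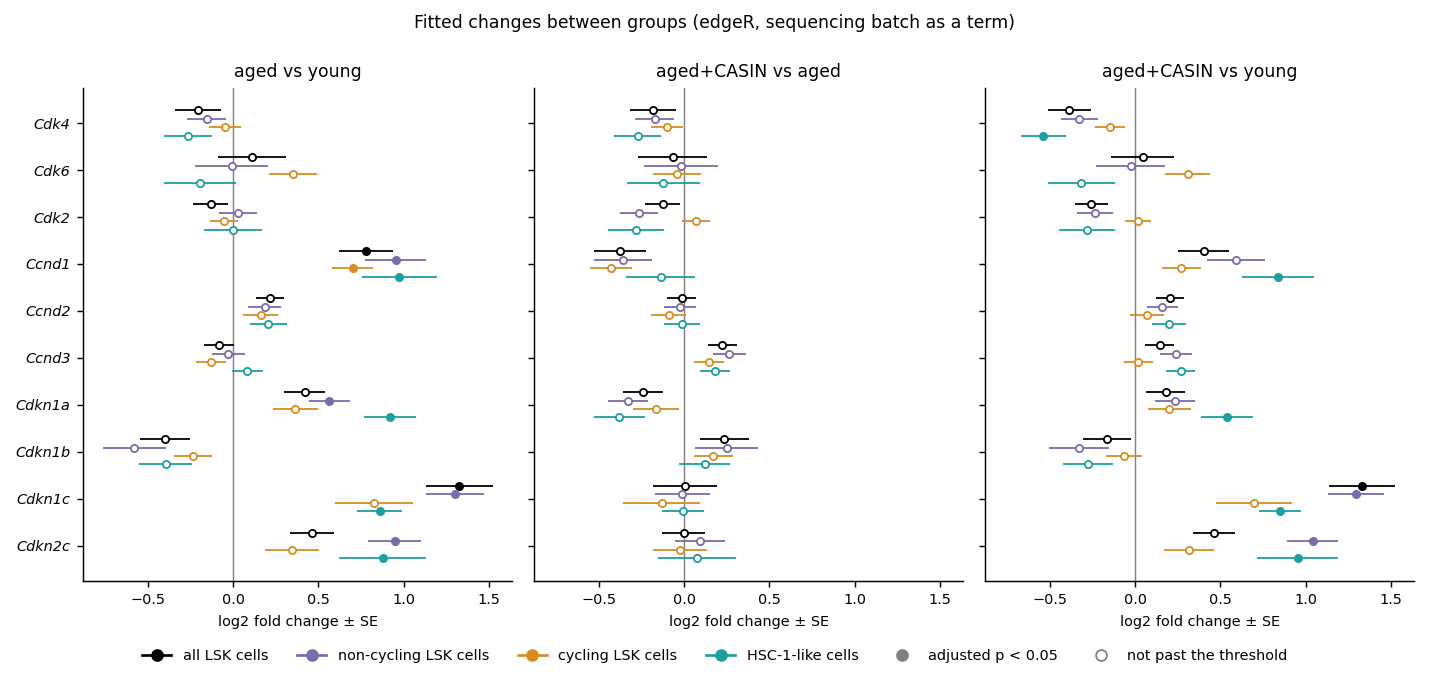
Log2 difference of each gene (points, with SE) for aged against young, CASIN against aged and CASIN against young samples in each class of cells; filled points passed the test at an adjusted p of 0.05. Cdkn1c lies to the right of 0 in the comparisons of both older groups with the young samples (1.33 over all LSK cells in each), and no point passes for CASIN against aged samples.

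Between CASIN and aged samples none of the 10 genes passed in any class. Their number at an unadjusted p under 0.05 was 2 in all LSK, 3 in non-cycling, 1 in cycling and 1 in HSC-1-like cells. The aged samples serve both here and in the comparison above. No other gene passed either (0% in all LSK, in non-cycling, in cycling and in HSC-1-like cells), with 439, 375, 806 and 385 genes at an unadjusted p under 0.05. DESeq2 called 0, 1, 2 and 0 genes, none of the 10. Nearest to a difference were Ccnd1 in cycling cells, at -0.43 ± 0.12 (SE, adjusted p = 0.727) with -0.34 in batch 1 and -0.46 in batch 2, Ccnd3 in non-cycling cells, at 0.26 ± 0.10 (SE, adjusted p = 1) with 0.10 in batch 1 and 0.38 in batch 2, and Cdkn1a in non-cycling cells, at -0.33 ± 0.12 (SE, adjusted p = 1) with -0.32 in batch 1 and -0.32 in batch 2. For Ccnd1, cycling cells lay at 34.9, 34.2 and 13.9 CPM in the young samples, 50.02, 27.2 and 24.4 in the aged samples and 45.4, 34.8 and 19.3 in the CASIN samples, and the CASIN samples were below the aged samples of their batch. Cdkn1c gave 0.0046 ± 0.19 (SE, adjusted p = 0.998) over all LSK cells, with opposite directions in the batches (-0.48 in batch 1 and 0.51 in batch 2), and -0.01 ± 0.12 (SE, adjusted p = 1) in HSC-1-like cells. Cdk6 was also split, with 0.49 in batch 1 and -0.60 in batch 2 over all LSK cells and 0.50 in batch 1 and -0.71 in batch 2 in HSC-1-like cells. For the remaining genes the differences over all LSK cells were -0.18 ± 0.13 (SE, adjusted p = 0.987) for Cdk4, -0.12 ± 0.10 (SE, adjusted p = 0.987) for Cdk2, -0.01 ± 0.08 (SE, adjusted p = 0.993) for Ccnd2, 0.24 ± 0.15 (SE, adjusted p = 0.987) for Cdkn1b and -0.0028 ± 0.13 (SE, adjusted p = 0.998) for Cdkn2c. The standard errors of the 10 genes over all LSK cells were 0.08 to 0.20, and values that miss the threshold do not show equal levels.

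Against the young samples, which also serve in the comparison with age, CASIN samples showed higher Cdkn1c. It gave 1.33 ± 0.19 (SE, adjusted p = 0.0108) over all LSK cells, the only gene of the 10 that passed there against 4.27% of all genes, with 1.20 in batch 1 and 1.52 in batch 2. This call was lost without young 1 (adjusted p = 0.0639) or young 2 (0.0708). For the remaining genes over all LSK cells the differences were -0.39 ± 0.13 (SE, adjusted p = 0.111) for Cdk4, 0.04 ± 0.18 (SE, adjusted p = 0.91) for Cdk6 and -0.26 ± 0.10 (SE, adjusted p = 0.151) for Cdk2. They were 0.40 ± 0.15 (SE, adjusted p = 0.146) for Ccnd1, 0.20 ± 0.08 (SE, adjusted p = 0.17) for Ccnd2 and 0.14 ± 0.09 (SE, adjusted p = 0.338) for Ccnd3, and, of the inhibitors, 0.18 ± 0.11 (SE, adjusted p = 0.374) for Cdkn1a, -0.16 ± 0.14 (SE, adjusted p = 0.505) for Cdkn1b and 0.46 ± 0.12 (SE, adjusted p = 0.0667) for Cdkn2c. Of these DESeq2 called Cdk4 (-0.41, adjusted p = 0.0398) and Cdkn2c (0.44, adjusted p = 0.0464). Both also passed with the 2 groups only and without aged 1, Cdk4 also without young 3, Cdkn2c with the replicate number as a block (adjusted p from 0.0182 to 0.0481), and Ccnd1 passed without CASIN 2 (0.57, adjusted p = 0.0485). The handling genes lay at 10317 and 9880.5 CPM in CASIN 1 and 2 and 2885 in CASIN 3, above the young samples of each batch, and their part was not tested. In non-cycling cells Cdkn1c (1.29 ± 0.16, SE, adjusted p = 0.00342) and Cdkn2c (1.04 ± 0.15, SE, adjusted p = 0.00553) passed, against 7.41% of all genes. Both were higher in each batch, Cdkn2c by 1.14 in batch 1 and 0.75 in batch 2. Ccnd1 gave 0.59 ± 0.17 (SE, adjusted p = 0.062) and missed the threshold, but passed with DESeq2 (0.57, adjusted p = 0.0355), without the filter on low counts (0.60, 0.0143), with the replicate number as a block (0.57, 0.0424) and without aged 1 (0.59, 0.0486) or CASIN 2 (0.79, 0.012). Cdk4 gave -0.33 ± 0.11 (SE, adjusted p = 0.0991) and passed with the 2 groups only (-0.32, 0.044) and without young 3 (-0.46, 0.0121) or aged 1 (-0.32, 0.0468). In cycling cells none of the 10 passed, against 0.435% of all genes, and DESeq2 also called none. In HSC-1-like cells 5 passed, against 16.7% of all genes: Cdkn2c (0.95 ± 0.24, SE, adjusted p = 0.0155), Cdkn1c (0.85 ± 0.12, SE, adjusted p = 0.000787), Ccnd1 (0.84 ± 0.21, SE, adjusted p = 0.0167) and Cdkn1a (0.54 ± 0.15, SE, adjusted p = 0.0288) were higher. Cdk4 was lower, at -0.54 ± 0.13 (SE, adjusted p = 0.014) with -0.65 in batch 1 and -0.25 in batch 2, and lay in HSC-1-like cells at 289.9, 254 and 113 CPM in the young samples, 173, 124 and 108 in the aged samples and 182, 158 and 88.2 in the CASIN samples. All 3 CASIN samples lay below the young samples of their batch, but the groups overlapped over both batches. In non-cycling HSC-1-like cells alone Cdk4 was -0.35 ± 0.11 (SE, adjusted p = 0.0574) and did not pass, whereas the other 4 genes did. The call of Cdkn1c held without any single library, but its value was 0.56 with cells thinned to 4000 UMIs and 0.52 at resolution 0.8, and each of the others was lost without some: Cdkn2c without young 1, CASIN 1 or CASIN 2 (adjusted p from 0.0535 to 0.0729), Ccnd1 without young 1 or 2 or CASIN 1 or 3 (0.061 to 0.0966), Cdkn1a without young 1 or 2 or any CASIN sample (0.0681 to 0.137), and Cdk4 without young 1 or 2 or CASIN 2 or 3 (0.0532 to 0.0712). Without young 1 the value of Cdkn2c was 0.57 and that of Cdkn1a 0.36. Ccnd3 passed without young 3 (0.32, adjusted p = 0.031) and with all HSC-like clusters pooled (0.30, 0.0333), and Cdk2 at resolution 0.8 (-0.53, 0.048). The share of HSC-1-like cells that scored as cycling was 36.1%, 27.6% and 19.8% in young, 10.4%, 11.4% and 10.3% in aged and 13.8%, 8.49% and 5.26% in CASIN samples, so that both older groups lay below the young (exact permutation p = 0.1 each, the smallest possible).

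Whether the differences with age or CASIN depended on the cycle class was tested directly. None of the 10 genes passed for either interaction, and 0% of all genes passed for age and 0% for CASIN against aged samples, with 1157 and 346 genes at an unadjusted p under 0.05 and 26 and 0 called by DESeq2. Cdkn2c came nearest: its age difference was 0.95 in non-cycling and 0.34 in cycling cells, and the interaction was -0.68 ± 0.15 (SE, adjusted p = 0.178). Without the filter on low counts this passed (adjusted p = 0.0273). Ccnd1 gave -0.50 ± 0.22 (SE, adjusted p = 0.488).

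The surrounding pathway was read through 33 further genes. Between cycling and non-cycling cells 17 of 29 tested rose and 4 fell, against 63.8% of all genes that passed in either direction, with a median log2 difference of 0.35 beside -0.04 for all genes. Since the classes were set by S and G2/M genes of the same counts, rises of genes tied to the cycle describe the classes. The largest rises were those of Ccne1, an E cyclin, at 3.50 ± 0.22 (SE, adjusted p = 1.39e-08), E2f2 at 3.69 ± 0.17 (SE, adjusted p = 5.24e-10) and E2f1 at 3.25 ± 0.16 (SE, adjusted p = 1.24e-09). Skp2, which marks p27 for turnover, rose by 1.64 ± 0.11 (SE, adjusted p = 3.47e-08), and Cdc25a, the phosphatase that activates Cdk2, by 1.14 ± 0.06 (SE, adjusted p = 1.91e-09). Among the pocket proteins Rbl1 (p107) rose by 1.88 ± 0.08 (SE, adjusted p = 1.89e-10), whereas Rbl2 (p130), known from quiescent cells, fell by 0.44 and Rb1 by 0.20 on the log2 scale. E2f5, a repressive E2F (-1.02), and Mycn (-1.25) were the others that fell. The others that rose were E2f7, Tfdp1, Lin9, E2f3, Lin54, Rbbp4, Trp53, Myc, Ccnh, E2f6 and E2f4, from 2.58 for E2f7 to 0.31 for E2f4. In S alone, where 65.9% of all genes passed, 17 rose and 6 fell, Cdk7 (-0.23), Mnat1 (-0.19) and Cdkn2d (-0.27) among the latter, and Rb1 did not pass (-0.10). In G2/M, where 60.5% of all genes passed, 17 rose, Cdkn2d (0.44) and Fbxw7 (0.18) among them, and 4 fell, and E2f6 (-0.07) and Myc (0.13) did not pass.

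With age 1 of 31 of these genes passed in all LSK cells, against 4.1% of all genes, Mycn at 0.85 ± 0.17 (SE, adjusted p = 0.0279). That call was lost without young 1, young 2, aged 1 or CASIN 1 and with the replicate number as a block. In non-cycling cells 2 of 31 passed, against 6.44% of all genes: Mycn (0.81 ± 0.14, SE, adjusted p = 0.0131) and E2f7, a repressive E2F (2.75 ± 0.50, SE, adjusted p = 0.0146), rose. No pathway gene passed there without young 1, young 2 or aged 1, and 1 passed with the replicate number as a block. E2f7 rested on few molecules, at 0.0930, 0.402 and 0.952 CPM in young, 2.01, 7.80 and 3.20 in aged and 1.64, 1.81 and 4.08 in CASIN samples, or 14, 138 and 109 UMIs over the 3 groups. Mycn differed by batch far more than by age, with 35.2, 30.7 and 2.15 CPM in young, 71.8, 2.44 and 2.90 in aged and 52.6, 49.7 and 3.09 in CASIN samples over all LSK cells. In HSC-1-like cells Mycn (0.87 ± 0.15, SE, adjusted p = 0.00332) and the INK4 inhibitor Cdkn2d, or p19 (0.47 ± 0.12, SE, adjusted p = 0.0217), rose, 2 of 29, against 10.4% of all genes, with 0 passing without aged 1 and 1 without young 1. In cycling cells 0 of 31 passed with age, against 0.944% of all genes. For CASIN against aged samples 0 passed in any class. For CASIN against young HSC-1-like cells 10 of 29 passed, against 16.7% of all genes: 3 rose, Mycn (0.71), E2f5 (0.65) and Cdkn2d (0.38), and 7 fell: E2f8 (-2.94), E2f1 (-1.66), Ccne2 (-1.60), Rbl1 (-1.11), Lin9 (-0.67), Tfdp1 (-0.48) and Rbbp4 (-0.32). Without young 1 or without CASIN 3, 1 rose and 3 fell. Without CASIN 1, 2 rose and 4 fell. With the clusters of resolution 0.8 defined above, 3 rose and 2 fell, and with cells thinned to 4000 UMIs 1 rose and 2 fell. Among non-cycling HSC-1-like cells alone 1 of 27 rose and 0 fell. In CASIN against young non-cycling cells E2f7 (2.42) and Mycn (0.59) rose, 2 of 31, against 7.41% of all genes, and 0 passed without young 1, young 2, CASIN 1 or CASIN 3 or with a mitochondrial limit of 5%. Counts of pathway genes under other settings are given without the share of all genes that passed there. A change in such a count therefore need not be particular to the pathway genes.

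The genes whose pattern over clusters was most like each of the 10 are given as a description, from Pearson's r over 72 sums (9 samples in 8 clusters, sample means removed) among 5736 genes. These sums share libraries and depth. Cdk4 was most like Hint1 (r = 0.96), Paics (r = 0.96) and Erh (r = 0.95). Cdk2 was most like Tyms (r = 0.90), Ran (r = 0.89) and Gmnn (r = 0.89), of which Tyms and Gmnn are part of the S list. Cdk6 was most like Runx3 (r = 0.93), Nkg7 (r = 0.91) and Tkt (r = 0.91). Cdkn1c followed Gda (r = 0.90), Nupr1 (r = 0.89) and Pdzk1ip1 (r = 0.89), and Gda and Nupr1 are among the leading genes of the HSC-1-like cluster. Ccnd2 was most like Tcp11l2 (r = 0.92), Dlgap4 (r = 0.91) and Aldoa (r = 0.89), and Ccnd3 most like Aldh1a1 (r = 0.81), Selenom (r = 0.78) and Clca3a1 (r = 0.78). The nearest genes of the other 4 were less close: Hist1h4i (r = 0.66), Gpaa1 (r = 0.65) and Hist1h1d (r = 0.65) for Cdkn2c, Rasa4 (r = 0.66), Ighm (r = 0.66) and Baiap2 (r = 0.63) for Cdkn1a, Rnf111 (r = 0.63), Map4k4 (r = 0.60) and Actg1 (r = 0.59) for Cdkn1b, and Eid1 (r = 0.62), Mbp (r = 0.59) and Ttc3 (r = 0.56) for Ccnd1. Among the 10 genes themselves r was 0.80 between Cdk4 and Cdk6, -0.80 between Cdk4 and Ccnd2 and -0.75 between Cdk6 and Cdkn1c.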

How the data were processed

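RNA of single LSK cells was counted with 10x 3′ v3 chemistry in 9 samples, 3 per group. The authors deposited UMI counts per gene and cell, made with Cell Ranger 3.1.0 on mm10 per the submitters' processing notes.

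Cells with 1000 to 40000 UMIs, at most 6000 genes, at most 10% mitochondrial UMIs and a residual of genes on UMIs of at most 0.4 were kept, and genes in at least 3 cells. Barcodes numbered 32387 and cells kept 15856. Cell-cycle scores came from the Seurat S and G2/M genes in cells thinned to 4000 UMIs, and cells were clustered with Seurat 5.3.0 after integration on 1500 features, with 35 components at resolution 0.4. Clusters were named from fixed markers, and 981 cells in 2 clusters stayed unnamed. Doublets were scored with Scrublet, which called 67 cells (0.423%) and is therefore not informative, so that the 5% of cells with the highest score were left out as an alternative added after seeing the data.

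UMIs were summed per sample and class, and these counts were tested with edgeR 4.0.16 (TMM, filterByExpr, quasi-likelihood, Benjamini-Hochberg over all genes, threshold 0.05) in R 4.3.3, with all 9 samples and batch as a term. Classes were compared with sample as a term, without genes of the scoring lists. The SE is the log2 difference divided by the square root of F. CPM is UMIs of a gene per 1000000 UMIs of the summed class. Printed CPM carry no TMM factor, whereas within-batch differences are of mean log2 CPM with TMM factors and prior count 2 and carry no test. Shares of cells were compared by exact permutation. Scripts were tested on simulated data, and 17 alternatives were fixed, with DESeq2 1.42.0 among them. The 10 genes were all named, pathway genes where they passed. The members and lists were chosen with earlier results of these data known.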

Additional observations from a re-analysis of the deposited data

How the results depend on the processing

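Between cycling and non-cycling cells, 7 or 8 of the 10 genes passed when any single library was left out (S 7 to 8, G2/M 8). Among HSC-1-like cells alone 5 passed in S and 3 in G2/M, where fewer cells were summed. Group comparisons depended far more on the settings. Counts in this section are given without the share of all genes that passed under the same setting. A change in a count therefore need not be particular to the 10 genes. Without the batch term 0 genes passed in aged against young samples in all LSK, non-cycling, cycling and HSC-1-like cells, and 0 in CASIN against young samples in all LSK, non-cycling and HSC-1-like cells. In cycling cells the single age call became 0 with cells thinned to 4000 UMIs, with the 2 groups only and with the 5% highest doublet scores left out, and 2 genes passed with scoring at 2000 UMIs or with no filter on low counts. For CASIN against young samples, 3 genes passed over all LSK cells with DESeq2 and 3 with the 2 groups only, and 3 in HSC-1-like cells with a mitochondrial limit of 5%. Without the filter 1 gene passed for the age interaction. The cause was not tested. The value for Cdk2 in CASIN against young HSC-1-like cells turned to 0.0522 (log2, not called) with cells thinned to 4000 UMIs.

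Leaving out 1 library gave, for aged against young samples, 0 to 2 genes over all LSK cells (0 without young 1 or 2, 1 without young 3, aged 1 or aged 2), 1 to 5 in non-cycling cells (1 without young 1 or aged 1, 2 without young 2), 0 to 1 in cycling cells (0 without young 1, 2 or 3 or CASIN 3) and 2 to 5 in HSC-1-like cells (2 without young 1 or aged 1). For CASIN against young samples it gave 0 to 3 over all LSK cells (0 without young 1 or 2, 2 without young 3 or CASIN 2, 3 without aged 1), 2 to 4 in non-cycling cells (4 without aged 1) and 1 to 6 in HSC-1-like cells (1 without young 1, 2 without young 2 or any CASIN sample). For CASIN against aged samples it gave 0 in each class. The difference in cycling share ran from -18.7 to -9.46 points for aged against young, from -22.4 to -13.2 for CASIN against young and from -7.22 to 0.265 for CASIN against aged samples, the last without aged 2.

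Replicate numbers are shared between groups. Deviations from the group means correlated at 0.73 to 0.89 between samples of the same number that shared a batch. Between aged 2 and young 2 or CASIN 2, which lie in different batches, they correlated at -0.61 and -0.60. After removing batch the values were -0.48 to 0.27. They cannot decide whether the numbers pair the samples, because the first carry the batch and the second are residuals of only 9 samples. With the replicate block 0 genes passed for aged against young samples over all LSK cells and 0 in cycling cells, and 2 for CASIN against young samples over all LSK cells. Over the 56 pairs of gene and comparison called in some setting, 954 of 1100 alternative values kept direction and side of the threshold, 107 lost and 38 gained the call, and 1 turned.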

Other observations

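The INK4 genes Cdkn2a and Cdkn2b, neighbours that encode p16 and p15, were near the limit of detection. Cdkn2a had 15 UMIs in all LSK cells kept. Cdkn2b had 77 UMIs, 5 in young, 26 in aged and 46 in CASIN samples, and in HSC-1-like cells 0, 17 and 30. It lay at 0.282 to 1.51 CPM in the 4 samples of batch 2 and at 0 to 0.171 CPM in the 5 of batch 1. Dixon's ratio was taken in 30 sets of 9 values, the differences of the 10 genes between cycling, S or G2/M and non-cycling cells. In none did it pass 0.493, the limit for 9 values above which a single sample stands apart. The ratio can miss samples that lie apart together, such as the batch split of Ccnd1 in S.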
